A study of Mus musculus with 6 samples.

Results

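Interferon-stimulated genes were followed across all cell classes of mouse colonic tumours measured by droplet-based single-cell RNA sequencing. The 48 genes were taken by symbol, and 47 of them were among the 31053 features of the count tables. Mx2 was not analysed here. The Apc ICI group held 3 tumours of male VilCreER Apcfl/fl mice, with no further treatment, in which recombination was induced by a submucosal colonic injection of 70 µl of 100 µM 4-OH tamoxifen. The AOM PN group held 3 tumours of male VilcreER P53fl/fl Notch1Tg mice that were given 2 mg of tamoxifen intraperitoneally and, from day 4, the carcinogen azoxymethane (AOM) at 10 mg/kg each week for 6 weeks. Both groups carry the villin-driven, tamoxifen-inducible Cre recombinase, which acts in the intestinal epithelium, so the immune and red cells of the tumours carry no engineered change that the labels name. The targeted genes, the carcinogen and the way of induction differ together, and their effects on a member cannot be told apart. Ages are not given in the sources used here, and mice were taken at clinical endpoint. The labels do not say whether each sample came from its own animal, so the p-values reflect only how far these 6 samples scatter, which may be technical.

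Interferons are cytokines released by cells that sense foreign or misplaced nucleic acid. Type I and type III interferons signal through JAK kinases to a complex that holds STAT2 and IRF9 and binds the interferon-stimulated response element (ISRE) in promoters, whereas the response to interferon gamma runs through the gamma-activated sequence (GAS). The genes so induced include nucleic acid sensors, antiviral effectors, the ubiquitin-like protein ISG15 and feedback inhibitors such as USP18. In the gut these genes respond to microbial products and to immune cells, and in tumours to DNA damage and inflammation.

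To show the element by which the group is known, promoters were searched for GAAANNGAAA on both strands, an ISRE-like string, in windows from 250 bases before to 50 bases after each RefSeq start (GRCm38.p6). Of the 47 members, 37 had a window, some of them several, and 19 of the 37 held the string. It was in 21 of the 45 member windows (46.7%), against 3.44% of all 32851 windows of the same length. The palindrome TTCNNNGAA, a GAS-like string, was in 9 members and 9 of the 45 windows, against 8.30% of all windows. In Ddx58 and Ifih1 the match lies after the start, at 2 and 32. Windows of 4 members that the results below turn on are printed 5′ to 3′ on the gene's strand, for the 250 bases that end at the base before the start, with the ISRE-like matches in capitals. Those of Isg15 (chr4:156200819-156201068, minus strand), which encodes the ubiquitin-like modifier, Ifit3 (chr19:34583279-34583528, plus strand), an antiviral adaptor, Bst2 (chr8:71537473-71537722, minus strand), a membrane tether of budding virions, and Rsad2 (chr12:26456453-26456702, minus strand), the antiviral enzyme viperin, read:
Isg15: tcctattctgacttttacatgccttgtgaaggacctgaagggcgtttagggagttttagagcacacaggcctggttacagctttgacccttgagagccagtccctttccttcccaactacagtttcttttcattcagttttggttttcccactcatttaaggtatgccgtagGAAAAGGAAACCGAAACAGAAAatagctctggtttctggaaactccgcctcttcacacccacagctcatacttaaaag
Ifit3: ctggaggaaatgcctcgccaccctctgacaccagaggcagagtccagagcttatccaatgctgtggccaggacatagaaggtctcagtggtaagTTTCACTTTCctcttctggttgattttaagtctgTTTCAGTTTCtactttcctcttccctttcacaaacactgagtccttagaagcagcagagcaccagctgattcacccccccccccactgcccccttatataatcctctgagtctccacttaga
Bst2: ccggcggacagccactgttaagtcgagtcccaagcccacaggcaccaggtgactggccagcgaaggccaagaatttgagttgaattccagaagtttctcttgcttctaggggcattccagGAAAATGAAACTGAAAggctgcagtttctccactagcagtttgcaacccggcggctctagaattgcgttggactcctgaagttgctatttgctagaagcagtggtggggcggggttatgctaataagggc
Rsad2: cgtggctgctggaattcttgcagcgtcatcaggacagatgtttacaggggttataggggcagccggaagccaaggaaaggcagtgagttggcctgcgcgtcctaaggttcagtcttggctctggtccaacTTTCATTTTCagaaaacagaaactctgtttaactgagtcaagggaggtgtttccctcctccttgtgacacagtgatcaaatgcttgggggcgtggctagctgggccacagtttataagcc
In Isg15 the run of overlapping matches starts 78 bases before the start. In Bst2 it starts 130 bases before, and in Rsad2 the match starts 120 bases before. Ifit3 holds 2 separate matches, at 156 and 122 bases before the start, and those of Ifit3 and Rsad2 lie on the opposite strand. Oasl2, Irf7 and Ube2l6 have no such match in their windows. In neutrophil-like cells 13 of the 19 tested members with the string were lower in AOM PN, and 11 of the 18 with a window lacking it. In erythroid-like cells the counts were 8 of 9 and 7 of 12. In B-like cells they were 2 of 6 and 0 of 7. In epithelial-like cells 5 members rose and 2 fell of 18 with it, and 8 rose and 1 fell of 18 with a window lacking it. Gbp3 has a window with the string and another without it, so the neutrophil- and epithelial-like counts hold it on both sides. It was lower in neutrophil-like cells and did not pass in epithelial-like cells. Over all genes tested, 16.9% were lower in neutrophil-like, 2.31% in erythroid-like and 0.27% in B-like cells. In epithelial-like cells 22.7% were higher and 23.4% lower. Of the calls, 14 of 17 in erythroid-like and 3 of 4 in B-like cells passed a filter on low counts through Apc ICI. Whether the calls differ by the string was not tested.

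Total unique molecular identifiers (UMIs) per library ranged from 59309093 to 60075436 for Apc ICI and from 87107277 to 98583066 for AOM PN, and 16435 and 29627 cells were kept. Haemoglobin took between 21.4% and 61.4% of these in Apc ICI libraries and between 1.87% and 29.0% in AOM PN libraries, so levels are given as counts per 1000000 UMIs outside haemoglobin (CPM). Levels of tested classes are scaled by edgeR's effective library size, and those of clusters, mast-like cells and unclustered barcodes are not. Libraries shared 10 to 52 barcodes per pair, at most 0.51% of the smaller library. Cells were clustered without the interferon genes among the variable genes and named from marker genes, which left 3002 epithelial-like, 15192 neutrophil-like, 8381 monocyte/macrophage-like, 1655 dendritic-like, 5131 T/NK-like, 871 B-like and 4811 erythroid-like cells. Each clustered class was tested on its sums of counts per library. UMI counts at the 3′ end do not scale with gene length, so CPM of different members may be set side by side. The groups fill some classes from different clusters, which are given where this holds.

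With haemoglobin left out of the totals, the tested classes and mast-like cells had the same order at both ends in both groups. The members' mean summed level was highest in erythroid-like cells, then in neutrophil-like cells, and lowest in epithelial- and mast-like cells. Unclustered haemoglobin-rich barcodes with under 200 genes lay between the first 2, with means of 35325 CPM for Apc ICI and 23641 CPM for AOM PN. Summed over the 47 members, erythroid-like cells held 78553, 53799 and 82997 CPM across Apc ICI 1 to 3 and 25271, 40261 and 17095 CPM across AOM PN 1 to 3. Neutrophil-like cells held 10989, 23887 and 11999 CPM for Apc ICI against 7284, 7046 and 4399 CPM for AOM PN. In both classes the highest AOM PN library lay below the lowest Apc ICI library. The first place of erythroid-like cells depended on the total and on a few members. With haemoglobin kept in the total their means were 4201 and 1658 CPM, below the 15074 and 6089.6 of neutrophil-like cells and the 5475 and 4086 of monocyte/macrophage-like cells. Without Isg15, Ube2l6, Rsad2 and Isg20 their means were 5725 and 802 CPM, against 11024 and 4408 in neutrophil-like cells. B-like cells showed the same separation, with 2006, 3154 and 2891 CPM against 1159.8, 1449.5 and 1098 CPM. Monocyte/macrophage-like cells, at 6233, 4909 and 5646 CPM against 3806, 6452 and 2249 CPM, overlapped, with AOM PN 2 above all 3 Apc ICI libraries and AOM PN 1 and 3 below them. Dendritic-like cells, at 3280.3 ± 899.7 CPM (SD, n = 3) against 2538 ± 995 CPM, and T/NK-like cells, at 2346 ± 85.3 CPM against 2126 ± 155 CPM, lay near each other in the groups. In epithelial-like cells the order of the means was the opposite, 642 ± 153 CPM for Apc ICI against 817 ± 131 CPM for AOM PN, with overlapping libraries. Mast-like cells were at 1063 ± 371 and 576 ± 129 CPM, and they held only 14, 21 and 18 cells in the Apc ICI libraries.

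**Figure D1:**
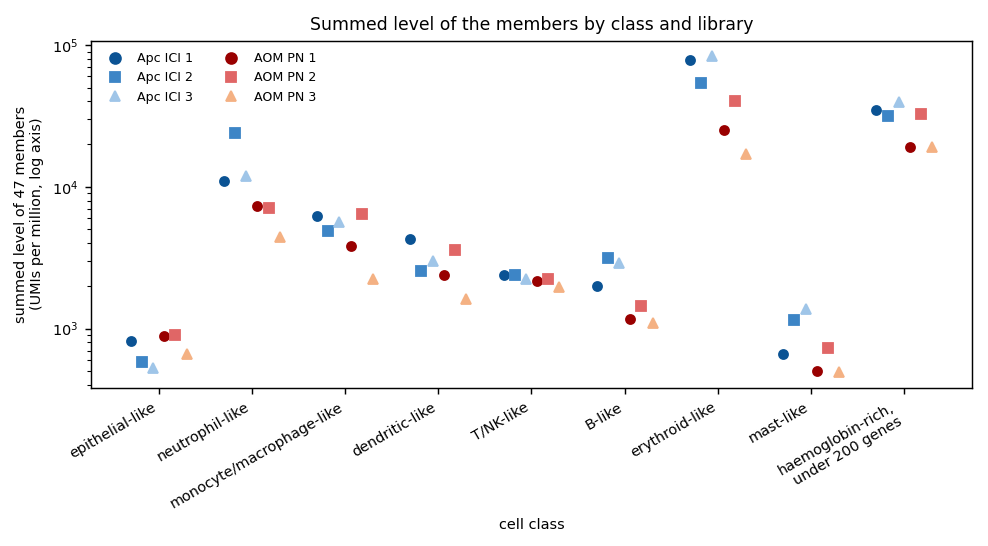
The plot gives the summed level of the 47 members (CPM, log axis) by cell class, with a point for each library of Apc ICI (blue) and AOM PN (red to orange). Among the clustered classes shown, erythroid- and neutrophil-like cells are highest, and in both the 3 AOM PN points lie below the 3 Apc ICI points. Haemoglobin-rich barcodes with under 200 genes lie above the neutrophil-like cells of each library.

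In Apc ICI 22 of the 47 members had their highest mean level in neutrophil-like cells, 13 in erythroid-like, 6 in monocyte/macrophage-like, 3 in T/NK-like, 2 in dendritic-like and 1 in B-like cells. In AOM PN the counts were 17, 6, 13, 4, 5 and 0, with 2 in epithelial-like cells. The classes also gave different shares of each library's member UMIs. Neutrophil-like cells gave 30.1, 63.6 and 23.4% of all member UMIs across Apc ICI 1 to 3, against 19.3, 27.6 and 21.9% across AOM PN 1 to 3. Erythroid-like cells gave 21.8, 3.58 and 43.4% and 8.73, 2.37 and 0.598%, and for Isg15 alone 45.5, 6.54 and 62.8% and 11.8, 2.57 and 0.339%. Most Isg15 UMIs of Apc ICI 3 thus came from erythroid-like cells, and hardly any of those in AOM PN 3. The number of cells differed as well. Erythroid-like cells were 13.9, 5.41 and 23.9% of barcodes across Apc ICI 1 to 3 and 7.11, 2.75 and 0.555% across AOM PN 1 to 3, with 75 cells in AOM PN 3. Neutrophil-like cells were 19.9, 38.6 and 17.0% and 14.5, 31.8 and 23.0%. The part of cell numbers in the shares of UMIs was not tested.

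Changes between the groups were then tested in 7 classes with edgeR's quasi-likelihood test, with p-values adjusted over all genes of the class (Benjamini-Hochberg) and a threshold of 0.05. A positive log2 change means higher in AOM PN. Of the 47 members, 40 passed in at least 1 class. The share of all genes that did so was not counted. In epithelial-like cells alone 46.1% of all genes tested passed, and in neutrophil-like cells 31.4%, so the 40 is a description. Gbp2, Igtp, Iigp1, Irf9, Mx1, Parp14 and Slfn1 passed in none. A call can also rest on a member that passed the filter on low counts through the group where it was higher. This held for 1 of 17 called in epithelial-like, 1 of 31 in neutrophil-like, 2 of 3 in monocyte/macrophage-like, 3 of 5 in T/NK-like, 3 of 4 in B-like and 14 of 17 in erythroid-like cells.

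**Figure D2:**
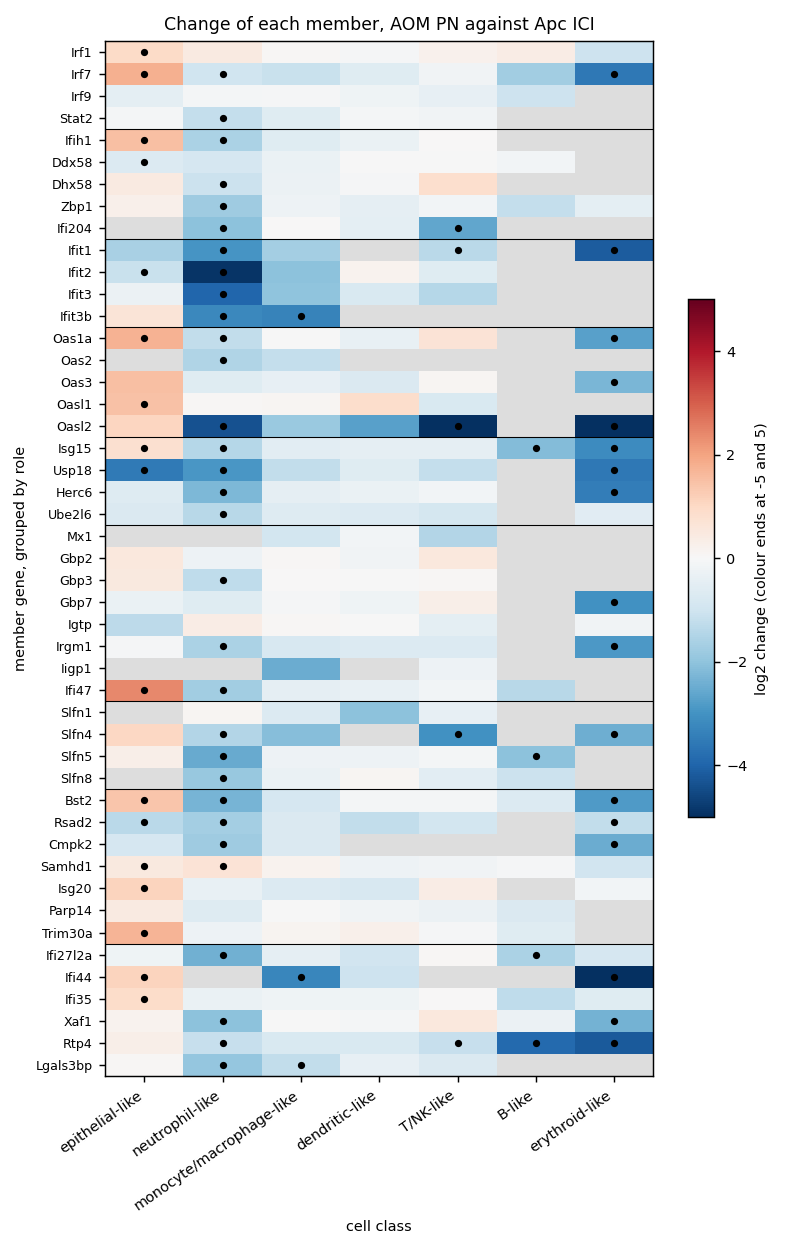
The heat map gives the log2 change of AOM PN against Apc ICI for each member (one line each, grouped by role) in each of the 7 tested classes, with a black dot where edgeR's adjusted p was under 0.05 and grey where the member did not pass the filter on low counts. Neutrophil- and erythroid-like cells show mostly lower levels in AOM PN, and epithelial-like cells show changes in both directions.

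In epithelial-like cells 13 members rose and 4 fell in AOM PN, of 41 that passed the filter on low counts. The members' median log2 change was 0.44, against -0.03 over all genes of the class. This class differed widely between the models: 46.1% of the 12665 genes tested passed in either direction, so the count of 17 members called of 41 is near the background. The groups did not overlap for 17 of the 41 tested members, against 58.3% of all genes tested. A lack of overlap in a member named below is therefore common in this class. The groups also fill the class from different clusters. Cluster 18, led by Mt4, Mt3 and Ptn, contributed 877 cells from Apc ICI and 37 from AOM PN, and cluster 21, led by Gpx2, Wfdc18 and Lypd8, held 138 and 518.

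Among the regulators, Irf7, which amplifies interferon production, stood at 10.9, 10.5 and 13.6 CPM across Apc ICI 1 to 3 and 37.1, 63.0 and 19.1 CPM across AOM PN 1 to 3. The groups did not overlap (log2 change 1.78 ± 0.36, edgeR adjusted p = 0.00438). Irf1, an early target of interferon gamma, was at 67.98, 31.4 and 38.9 CPM in the Apc ICI libraries against 108, 81.04 and 79.8 CPM in the AOM PN libraries (log2 change 0.97 ± 0.27, edgeR adjusted p = 0.0204). Stat2, a transcription factor of type I signalling, was at 13.4, 6.93 and 6.69 CPM in the Apc ICI libraries against 7.501, 9.16 and 8.72 CPM in the AOM PN libraries and did not pass (log2 change -0.10 ± 0.31, edgeR adjusted p = 0.815). Among the sensors, Ifih1, which encodes the RNA helicase MDA5, rose from 9.92 ± 1.59 to 27.8 ± 5.54 CPM (SD, n = 3; log2 change 1.51 ± 0.19, edgeR adjusted p = 0.000525), while Ddx58, the related helicase RIG-I, fell from 22.2 ± 7.33 to 13.8 ± 1.82 CPM (log2 change -0.70 ± 0.24, edgeR adjusted p = 0.0451).

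Usp18, which removes ISG15 and damps the type I receptor, was the member that fell furthest in epithelial-like cells. It stood at 71.4, 52.0 and 54.2 CPM across Apc ICI 1 to 3 and 5.36, 1.94 and 8.05 CPM across AOM PN 1 to 3 (log2 change -3.54 ± 0.31, edgeR adjusted p = 0.000115). The lowest Apc ICI library lay far above the highest AOM PN library. These levels came from particular clusters: cluster 18 held 86.8, 67.03 and 73.6 CPM in Apc ICI 1, 2 and 3, against 37.04 in the 27 cells of AOM PN 3. Cluster 21 held 0, 1.73 and 4.25 for Apc ICI against 2.69, 1.91 and 3.26 for AOM PN, so within it the fall was not seen. Cluster 14 held 19.8, 27.5 and 22.1 and 16.3, 1.49 and 0.

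Isg15 moved the other way from its deconjugating enzyme. In epithelial-like sums it was at 49.1, 38.8 and 35.6 CPM across Apc ICI 1 to 3 and 83.3, 67.99 and 65.4 CPM across AOM PN 1 to 3 (log2 change 0.82 ± 0.15, edgeR adjusted p = 0.00309), with no overlap between the groups. The direction was not shared by the clusters. In cluster 21 Isg15 was at 19.7, 29.01 and 35.7 CPM across Apc ICI 1 to 3, against 79.1, 71.8 and 67.6 CPM across AOM PN 1 to 3, while in cluster 14, led by Gpx2, Pyy and Lgals4, with 879 and 553 cells, it was at 113, 80.9 and 72.6 and 44.2, 28.3 and 34.4, the reverse order. Cells of cluster 14 were shallower, with a median of 1388 UMIs against 24620 in cluster 21, and haemoglobin took 3.27% of their UMIs on average against 1.08%. Epithelial-like cells also carried haemoglobin, and the Isg15 that would accompany it at the ratio of the same library's erythroid-like cells came to 50.8, 26.3 and 117% of the Apc ICI levels and 6.12, 4.97 and 0.574% of the AOM PN levels. Its part in the result was not tested.

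The tether Bst2 and the immunity-related GTPase Ifi47 also rose, without overlap between the groups. Bst2 was at 36.9, 38.8 and 27.96 CPM across Apc ICI 1 to 3 and 92.5, 93.5 and 85.9 CPM across AOM PN 1 to 3 (log2 change 1.39 ± 0.14, edgeR adjusted p = 0.000175). Ifi47, whose exons overlap those of Olfr56 on the same strand, was at 4.13, 1.84 and 2.48 CPM in the Apc ICI libraries against 17.4, 16.7 and 8.72 CPM in the AOM PN libraries (log2 change 2.40 ± 0.37, edgeR adjusted p = 0.00128). Of the oligoadenylate synthetase family, Oas1a rose from 4.08 ± 1.35 to 13.1 ± 3.27 CPM (log2 change 1.73 ± 0.30, edgeR adjusted p = 0.00232) and Oasl1 from 6.75 ± 1.16 to 18.9 ± 13.9 CPM (log2 change 1.46 ± 0.45, edgeR adjusted p = 0.0279), and Oas3 and Oasl2 did not pass. Trim30a (1.70 ± 0.59), Ifi44 (1.12 ± 0.36), Isg20, an exonuclease (1.11 ± 0.16), Ifi35 (0.92 ± 0.14) and Samhd1, a dNTP hydrolase (0.48 ± 0.13), also rose. Of the IFIT proteins, which bind foreign RNA, Ifit2 fell (log2 change -1.12 ± 0.34, edgeR adjusted p = 0.0289) and Ifit3 did not pass, at 1.87, 3.62 and 9.39 CPM in the Apc ICI libraries against 3.93, 5.27 and 2.68 CPM in the AOM PN libraries (log2 change -0.28 ± 0.58, edgeR adjusted p = 0.714). Rsad2 fell (log2 change -1.35 ± 0.39, edgeR adjusted p = 0.0222). Gbp2, a guanylate-binding protein induced by interferon gamma, was at 9.35, 1.89 and 1.403 CPM in the Apc ICI libraries against 3.93, 9.99 and 4.36 CPM in the AOM PN libraries and did not pass (log2 change 0.52 ± 0.73, edgeR adjusted p = 0.591).

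Most of these members are more abundant elsewhere: 11 of the 17 called had an epithelial-like level below 0.25 of that in the class where they were highest. Markers of neutrophils summed to 0.156, 0.326 and 0.128% of their own-class level in the epithelial-like sums of Apc ICI and 0.249, 0.521 and 0.2503% in AOM PN, and markers of monocytes and macrophages to 0.495, 0.421 and 0.269% and 0.614, 0.586 and 0.681%. The part of other cells' RNA in these changes was not tested. Without AOM PN 2, 11 members passed, with cells thinned to 1000 UMIs 5 of the 12 then tested did, and 9 of the 17 passed whichever library was left out (Bst2, Ifi35, Ifi47, Ifih1, Irf7, Isg15, Isg20, Oas1a and Usp18).

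**Figure D3:**
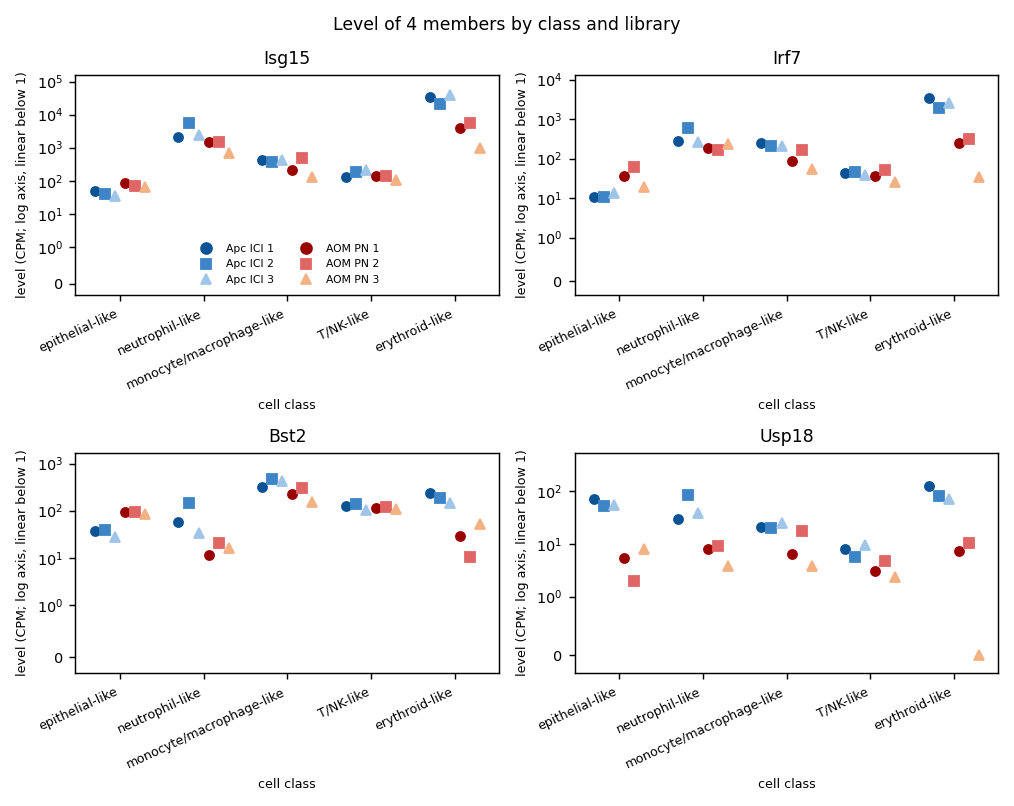
The 4 panels give the level (CPM, log axis, linear below 1) of Isg15, Irf7, Bst2 and Usp18 in each library of Apc ICI (blue) and AOM PN (red to orange) in 5 classes. Isg15, Irf7 and Bst2 lie higher in AOM PN in epithelial-like cells and lower in neutrophil- and erythroid-like cells, and Usp18 is lower in AOM PN in all 3.

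In neutrophil-like cells 30 members fell in AOM PN and 1 rose, of 44 tested. The median log2 change of the members was -1.45, against -0.05 over all genes. Of the 9155 genes tested 31.4% passed in either direction and 16.9% were lower, while 68.2% of the tested members were lower. The falls ran through almost every role: all 4 IFIT genes, all 4 genes of ISG15 conjugation, 4 of 5 sensors, 3 of 4 Schlafens, 3 of 5 oligoadenylate synthetases, 2 of 4 transcription factors and 3 of 6 tested GTPases.

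Isg15, the most abundant member here with Ifi27l2a, was at 2141, 5488 and 2414 CPM across Apc ICI 1 to 3 and 1483, 1515 and 713 CPM across AOM PN 1 to 3 (log2 change -1.44 ± 0.41, edgeR adjusted p = 0.0266). Apc ICI 2 stood above all other libraries, and all 3 AOM PN libraries lay below Apc ICI 1. Ifi27l2a, a small membrane protein induced by interferon, was at 2454, 4833 and 2916 CPM across Apc ICI 1 to 3 and 983, 600.2 and 373 CPM across AOM PN 1 to 3 (log2 change -2.38 ± 0.38, edgeR adjusted p = 0.00309). The IFIT genes fell further. Ifit3 was at 262, 885 and 285 CPM across Apc ICI 1 to 3 and 35.4, 43.0 and 13.97 CPM across AOM PN 1 to 3 (log2 change -3.95 ± 0.57, edgeR adjusted p = 0.002099), and Ifit2 at 51.6, 260.5 and 38.1 CPM in the Apc ICI libraries against 4.93, 3.19 and 3.97 CPM in the AOM PN libraries (log2 change -4.90 ± 0.75, edgeR adjusted p = 0.00268). Ifit3b (-3.22 ± 0.52), a near copy of Ifit3 whose reads may be split between them, and Ifit1 (-2.93 ± 0.56) fell likewise.

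Oasl2, a synthetase-like protein with ubiquitin-like domains, separated the groups widely. It was at 383, 729.7 and 398 CPM across Apc ICI 1 to 3 and 14.4, 29.8 and 29.4 CPM across AOM PN 1 to 3 (log2 change -4.35 ± 0.37, edgeR adjusted p = 0.000156). The lowest Apc ICI library lay an order of magnitude above the highest AOM PN library. Its relative Oasl1 did not pass, at 98.7, 237 and 110.2 CPM in the Apc ICI libraries against 175, 182 and 109 CPM in the AOM PN libraries (log2 change 0.06 ± 0.34, edgeR adjusted p = 0.903), nor did Oas3. Usp18 fell from 51.2 ± 29.6 to 6.897 ± 2.79 CPM (log2 change -2.90 ± 0.45, edgeR adjusted p = 0.00268) and Bst2 from 79.2 ± 60.4 to 15.9 ± 4.42 CPM (log2 change -2.31 ± 0.49, edgeR adjusted p = 0.00949). Slfn5 (-2.53 ± 0.49), of the Schlafen family of growth regulators, the ISG15 ligase Herc6 (-2.26 ± 0.53), the apoptosis factor Xaf1 (-2.05 ± 0.39) and the DNA sensor Ifi204 (-2.05 ± 0.36) completed the 12 largest changes. Ube2l6, the conjugating enzyme for ISG15, was called (log2 change -1.37 ± 0.39, edgeR adjusted p = 0.0268). Its level at the erythroid-like ratio to haemoglobin was 95.5, 35.1 and 116% of the measured one for Apc ICI against 143, 128 and 53.2% for AOM PN, and the part of red cell RNA was not tested. For Isg15 the same reading was at most 5.17%. Of the 31 called members 7 had a level below 0.25 of that in their highest class (Bst2, Gbp3, Irf7, Isg15, Lgals3bp, Rsad2 and Ube2l6).

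Among the regulators, Irf7 was at 286, 607 and 261 CPM in the Apc ICI libraries against 185, 164 and 237 CPM in the AOM PN libraries (log2 change -0.98 ± 0.32, edgeR adjusted p = 0.0422) and Stat2 at 22.1, 47.8 and 22.96 CPM in the Apc ICI libraries against 12.1, 16.96 and 12.04 CPM in the AOM PN libraries (log2 change -1.18 ± 0.31, edgeR adjusted p = 0.0207). Irf1, at 230.04, 215 and 188 CPM in the Apc ICI libraries against 174, 361 and 335 CPM in the AOM PN libraries, did not pass (log2 change 0.46 ± 0.26, edgeR adjusted p = 0.195), nor did the interferon gamma target Gbp2, at 117, 197 and 76.8 CPM in the Apc ICI libraries against 103, 124 and 105 CPM in the AOM PN libraries (log2 change -0.24 ± 0.30, edgeR adjusted p = 0.558). Samhd1 was the member that rose, at 334, 462 and 445 CPM in the Apc ICI libraries against 673, 733 and 608 CPM in the AOM PN libraries (log2 change 0.70 ± 0.18, edgeR adjusted p = 0.0183).

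The count depended on single libraries. Without Apc ICI 2, the library that stood high, 15 members passed, and without AOM PN 3 it was 20. With each library left out in turn 14 calls held, those of Bst2, Herc6, Ifi204, Ifi27l2a, Ifit1, Ifit2, Ifit3, Ifit3b, Oasl2, Slfn5, Slfn8, Usp18, Xaf1 and Zbp1. Isg15 was not among them.

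The groups also fill this class from different clusters. Most Apc ICI neutrophil-like cells lay in clusters 4 (2471 cells, against 145 in AOM PN) and 5 (2289 against 155), and most AOM PN cells in cluster 0 (7091 against 732). Cluster 5 was led by members, Slfn4, Ifit3 and Ifi27l2a, although these had been left out of the genes it was built on, and its summed level was 33705, 52156 and 25198 CPM in Apc ICI 1, 2 and 3, against 16413 in AOM PN 2, the only AOM PN library with at least 20 cells there. Within shared clusters the AOM PN levels also lay lower. In cluster 0 the members summed to 16742, 25247 and 14218 for Apc ICI against 5307, 6173 and 4226 for AOM PN, and in cluster 6 to 9180.2, 9599 and 5752 and 4664, 5575 and 3282. In cluster 4, with 38 to 63 cells per AOM PN library, they summed to 6078, 7395 and 4082 and 1845, 4663 and 2448, where AOM PN 2 lay within the Apc ICI range.

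**Figure D4:**
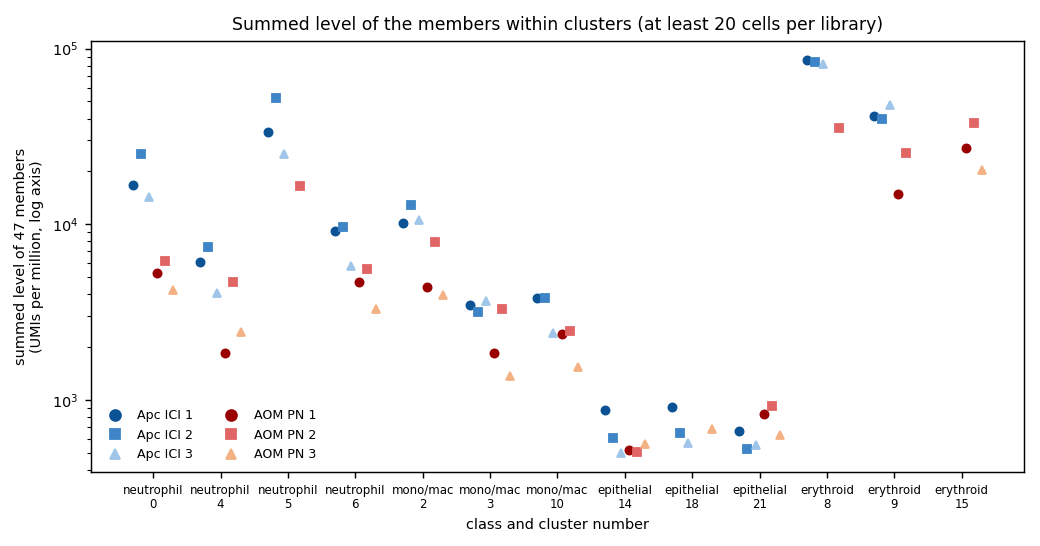
The plot gives the summed level of the 47 members (CPM, log axis) in each cluster and library with at least 20 cells, for Apc ICI (blue) and AOM PN (red to orange). In neutrophil-like clusters 0 and 6 and in erythroid-like clusters 8 and 9 all AOM PN points lie below the Apc ICI points.

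The shares of cells with a UMI of Isg15 or Oasl2, or with at least 5 member UMIs, gave the same order. With each neutrophil-like cell thinned to 500 UMIs outside haemoglobin, 44.4, 60.9 and 44.0% of cells across Apc ICI 1 to 3 and 27.4, 33.1 and 18.9% across AOM PN 1 to 3 had a UMI of Isg15. For Oasl2 the shares were 19.02, 31.4 and 17.5% and 0.599, 1.38 and 1.13%, and at least 5 member UMIs were found in 47.7, 61.97 and 47.1% and 17.8, 22.1 and 9.78%. The share with any member UMI lay near each other in the groups, at 81.2 ± 2.61% for Apc ICI and 78.6 ± 4.59% for AOM PN (SD, n = 3). Thinned to 1000 UMIs it was 88.8 and 91.8%, the reverse order. No class is known to lack Isg15. At 500 UMIs its shares were 4.36, 5.31 and 2.602% and 4.43, 4.42 and 3.66% in epithelial-like cells, 4.799, 6.25 and 4.89% in mast-like cells of AOM PN, and 0, 1.56 and 1.67% in the few B-like cells of AOM PN. The epithelial-like shares of the groups overlap and lie among these low values of other classes, and the part of free RNA in them was not tested.

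In monocyte/macrophage-like cells 3 members fell and none rose, of 47 tested, where 2.88% of the 11028 genes tested passed. The members' median log2 change was -0.54, against -0.02 over all genes, and the groups did not overlap for 12 of the 47 members, against 27.8% of all genes tested, so this count is near the background. Ifi44, an interferon-induced cytoplasmic protein, was at 13.5, 17.5 and 11.9 CPM across Apc ICI 1 to 3 and 2.41, 1.72 and 0.545 CPM across AOM PN 1 to 3 (log2 change -3.27 ± 0.42, edgeR adjusted p = 0.00977). Ifit3b was at 8.42, 12.9 and 6.93 CPM in the Apc ICI libraries against 0.562, 1.94 and 0.248 CPM in the AOM PN libraries (log2 change -3.36 ± 0.58, edgeR adjusted p = 0.0246) and Lgals3bp, a secreted binder of galectin-3, at 108, 117 and 129.9 CPM in the Apc ICI libraries against 48.9, 69.6 and 34.1 CPM in the AOM PN libraries (log2 change -1.22 ± 0.23, edgeR adjusted p = 0.0318). In all 3 each AOM PN library lay below each Apc ICI library. Ifi44 and Ifit3b passed the filter on low counts through their Apc ICI counts, so their calls are a description.

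AOM PN 2 stood above AOM PN 1 and 3 in each of the members named next. Isg15 was at 422, 356 and 413 CPM across Apc ICI 1 to 3 and 207, 479 and 132 CPM across AOM PN 1 to 3 and did not pass (log2 change -0.54 ± 0.39, edgeR adjusted p = 0.449), with AOM PN 2 above every other library. Usp18 showed the same order within AOM PN, at 20.9, 19.7 and 24.4 CPM in the Apc ICI libraries against 6.42, 17.4 and 3.77 CPM in the AOM PN libraries (log2 change -1.22 ± 0.47, edgeR adjusted p = 0.175), as did Ifit3, at 42.4, 55.2 and 35.6 CPM in the Apc ICI libraries against 8.35, 22.7 and 2.43 CPM in the AOM PN libraries (log2 change -2.0 ± 0.61, edgeR adjusted p = 0.104). Irf7 was at 247, 203 and 214 CPM in the Apc ICI libraries against 86.7, 166 and 54.5 CPM in the AOM PN libraries (log2 change -1.11 ± 0.34, edgeR adjusted p = 0.103) and Bst2 at 322, 468 and 428 CPM in the Apc ICI libraries against 223, 299.6 and 153 CPM in the AOM PN libraries (log2 change -0.85 ± 0.24, edgeR adjusted p = 0.0872). Stat2, at 45.9, 25.5 and 30.7 CPM in the Apc ICI libraries against 18.4, 37.1 and 11.5 CPM in the AOM PN libraries, Irf1, at 177, 91.5 and 109 CPM in the Apc ICI libraries against 95.6, 226 and 77.3 CPM in the AOM PN libraries, and Gbp2, at 130.2, 27.8 and 62.0 CPM in the Apc ICI libraries against 42.2, 139.7 and 47.7 CPM in the AOM PN libraries, overlapped and did not pass (edgeR adjusted p = 0.3998, 0.936 and 0.9705). Without AOM PN 2, 17 members passed, all lower. Without Apc ICI 1, Apc ICI 3 or AOM PN 1 the count was 1 each, and without Apc ICI 2 it was 0.

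Within cluster 2, led by the monocyte genes Lyz2 and Plac8, the members summed to 10117, 12850.3 and 10533 CPM for Apc ICI against 4380.3, 7933 and 3975 for AOM PN, without overlap. In cluster 3, led by Ccl24, Arg1 and Spp1, they summed to 3490.4, 3157 and 3633 and 1837, 3308 and 1374, where AOM PN 2 lay within the Apc ICI range. The groups fill the class from these clusters unequally. Clusters 2 and 3 held 501 and 505 Apc ICI cells against 3053 and 2560 AOM PN cells. Cluster 10, led by Apoe and C1qa and shallow at a median of 1460 UMIs, held 974 against 788, and there the members summed to 3809, 3821 and 2398 for Apc ICI against 2359, 2465 and 1532 for AOM PN, with overlap. AOM PN 2 was also the library with most Ifnb1, the gene of interferon beta. Of the 41 Ifnb1 UMIs in all kept cells, 37 came from 3 cells of cluster 2 in AOM PN 2, and 34 of these from 1 cell. Its part in the high member levels of that library was not tested.

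In dendritic-like cells no member passed, of 41 tested, where 1.06% of 8684 genes did (edgeR). At an unadjusted p under 0.05 there were 6, and DESeq2 called 2. Without AOM PN 2, 4 members passed, and without Apc ICI 3 it was 1. The median log2 change was -0.33, against -0.01 over all genes. The nearest was Oasl2, at 45.4, 38.5 and 30.01 CPM in the Apc ICI libraries against 2.84, 13.5 and 1.19 CPM in the AOM PN libraries (log2 change -2.72 ± 0.63, edgeR adjusted p = 0.0837). Isg15 was at 342, 184 and 212 CPM in the Apc ICI libraries against 215, 253 and 78.6 CPM in the AOM PN libraries (log2 change -0.44 ± 0.38, edgeR adjusted p = 0.638) and Bst2, which plasmacytoid dendritic cells carry at high level, at 603, 274 and 666 CPM in the Apc ICI libraries against 452, 684 and 290.5 CPM in the AOM PN libraries (log2 change -0.11 ± 0.35, edgeR adjusted p = 0.931). Their groups overlapped, as did those of Irf7, Stat2, Irf1, Gbp2, Ifit3 and Usp18 (edgeR adjusted p = 0.536, 0.922, 0.9598, 0.879, 0.642 and 0.299).

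In T/NK-like cells 5 members fell and none rose, of 43 tested, against 7.47% of 10372 genes (11.6% of the members). Oasl2 was at 8.28, 28.4 and 5.18 CPM across Apc ICI 1 to 3 and 0.264, 0.3797 and 0.233 CPM across AOM PN 1 to 3 (log2 change -5.54 ± 0.72, edgeR adjusted p = 0.00695), on 6 UMIs in AOM PN. Slfn4 (-3.01 ± 0.60), Ifi204 (-2.59 ± 0.47), Ifit1 (-1.34 ± 0.23) and Rtp4, a receptor chaperone (-1.15 ± 0.29), were the others. All 5 are mainly of another class, and the neutrophil markers in these sums stood at 0.5098, 1.06 and 0.362% of their own-class level for Apc ICI against 0.308, 0.322 and 0.268% for AOM PN. Their part in the falls was not tested. Oasl2 passed whichever library was left out. Oasl2, Ifi204 and Slfn4 passed the filter on low counts through their Apc ICI counts, so their calls are a description. Without Apc ICI 1 the count was 1, and without AOM PN 2 it was 2. With cells thinned to 1000 UMIs none of 26 passed. The groups fill this class unequally too. Clusters 11, 12 and 16 held 133, 383 and 90 Apc ICI cells against 1560, 1260 and 921 AOM PN cells, and cluster 20, shallow at a median of 1046 UMIs, held 480 against 233. In cluster 20 the members summed to 3557, 2733 and 2449.6 CPM for Apc ICI against 1507, 1969 and 1643 for AOM PN, and Oasl2 was at 13.03, 29.97 and 23.7 CPM against 0 in each AOM PN library. The part of this makeup in the falls was not tested.

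Other members overlapped between the groups or fell short of the threshold. Isg15 was at 129.7, 185 and 210.5 CPM in the Apc ICI libraries against 137, 141 and 106 CPM in the AOM PN libraries (log2 change -0.44 ± 0.18, edgeR adjusted p = 0.165), Bst2 at 126, 137 and 105 CPM in the Apc ICI libraries against 117, 121 and 107 CPM in the AOM PN libraries (log2 change -0.10 ± 0.12, edgeR adjusted p = 0.625) and Irf1 at 156, 131 and 227 CPM in the Apc ICI libraries against 189, 226 and 169.5 CPM in the AOM PN libraries (log2 change 0.20 ± 0.19, edgeR adjusted p = 0.546). Gbp2 was at 41.4, 30.1 and 27.99 CPM in the Apc ICI libraries against 56.8, 48.4 and 43.7 CPM in the AOM PN libraries, higher in each AOM PN library, and did not pass (log2 change 0.54 ± 0.18, edgeR adjusted p = 0.0943). Usp18 was lower in each AOM PN library and did not pass (log2 change -1.18 ± 0.37, edgeR adjusted p = 0.0804), and neither did Irf7, Stat2 or Ifit3 (edgeR adjusted p = 0.651, 0.647 and 0.143). Ifng, the gene of interferon gamma, came mainly from these cells, at 126, 40.3 and 51.1 CPM across Apc ICI 1 to 3 and 68.3, 111 and 63.7 CPM across AOM PN 1 to 3, with overlapping groups.

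B-like cells were few, with 45 and 64 cells in AOM PN 1 and 2 and 64 in Apc ICI 3, and only 17 members passed the filter. Of these 4 fell and none rose, where 0.49% of 4895 genes passed, and the median log2 change was -1.08 against 0 over all genes to 2 decimals. Ifi27l2a was at 705, 1096 and 1080.0 CPM across Apc ICI 1 to 3 and 315, 414 and 237 CPM across AOM PN 1 to 3 (log2 change -1.60 ± 0.22, edgeR adjusted p = 0.00431). Isg15 was at 76.2, 138 and 94.7 CPM across Apc ICI 1 to 3 and 11.7, 11.6 and 29.0 CPM across AOM PN 1 to 3 (log2 change -2.16 ± 0.35, edgeR adjusted p = 0.00975), and the level at the erythroid-like ratio to haemoglobin was 51.2, 6.74 and 54.2% of it for Apc ICI against 102, 8.03 and 2.701% for AOM PN, whose part was not tested. Slfn5 fell from 104 ± 38.9 to 21.5 ± 14.6 CPM (log2 change -2.06 ± 0.40, edgeR adjusted p = 0.0317). Rtp4 had 66 UMIs over the Apc ICI libraries and 3 over the AOM PN libraries, a ratio of levels of 15.6 (95% counting interval 5.10 to 77.5; edgeR adjusted p = 0.00938). Of the 4 called, Ifi27l2a alone reached the filter's minimum level in all 3 AOM PN libraries, and the other calls are a description. Irf7 was lower in each AOM PN library, at 49.6, 91.7 and 60.2 CPM in the Apc ICI libraries against 11.7, 42.5 and 13.5 CPM in the AOM PN libraries, and did not pass (log2 change -1.76 ± 0.42, edgeR adjusted p = 0.0823), nor did Bst2 or Irf1 (edgeR adjusted p = 0.295 and 0.5997). Stat2, Ifit3, Usp18 and Gbp2 had too few counts. The count was 1 without Apc ICI 2, 2 without AOM PN 3 and 7 without AOM PN 2, and Ifi27l2a passed in each case.

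Erythroid-like cells, rich in haemoglobin and led by red cell genes such as Alas2, had the highest summed level with haemoglobin left out of the total, and large falls. Of 25 members tested 17 fell and none rose, where 4.2% of 2121 genes passed. A filter passed through Apc ICI counts alone favours members that differ, though Samhd1 and Ifi35 passed it so and were not called. The filter left out 22 members. Of the 17 called, Irf7, Isg15 and Rsad2 reached the filter's minimum level in all 3 AOM PN libraries, and the other 14 passed the filter through their Apc ICI counts, so the count of 17 is a description. Among the 14, Ifi44 had 0 and Oasl2 had 2 UMIs in AOM PN. Isg15 was at 33276, 20868 and 38418 CPM across Apc ICI 1 to 3 and 4024, 5434 and 995 CPM across AOM PN 1 to 3 (log2 change -3.13 ± 0.43, edgeR adjusted p = 3.08e-06). The lowest Apc ICI library lay well above the highest AOM PN library. Irf7 was at 3368, 1905 and 2566 CPM across Apc ICI 1 to 3 and 249.6, 313 and 34.3 CPM across AOM PN 1 to 3 (log2 change -3.57 ± 0.42, edgeR adjusted p = 3.36e-07), again without overlap.

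Several members had hardly a UMI in AOM PN erythroid-like cells. Oasl2 had 792 UMIs over the Apc ICI libraries and 2 over the AOM PN libraries, a ratio of levels of 168 (95% counting interval 46.4 to 1391; edgeR adjusted p = 9.94e-09). Ifi44 had 159 and 0 UMIs, and was at least 22.5-fold higher in Apc ICI with 3 UMIs over the group as the floor. Rtp4 was at 322, 209.9 and 247 CPM in the Apc ICI libraries against 13.1, 21.2 and 0 CPM in the AOM PN libraries (log2 change -4.20 ± 0.56, edgeR adjusted p = 2.06e-06) and Ifit1 at 472, 369.7 and 390.3 CPM in the Apc ICI libraries against 20.3, 37.1 and 0 CPM in the AOM PN libraries (log2 change -4.15 ± 0.52, edgeR adjusted p = 7.52e-07). Usp18 fell from 91.4 ± 27.6 to 5.95 ± 5.42 CPM (log2 change -3.57 ± 0.61, edgeR adjusted p = 0.000125) and Bst2 from 189 ± 43.6 to 30.4 ± 20.5 CPM (log2 change -2.84 ± 0.52, edgeR adjusted p = 0.000345). Herc6 (-3.44 ± 0.56), Gbp7 (-3.04 ± 0.56), Irgm1 (-2.88 ± 0.75) and Oas1a (-2.70 ± 0.76) were the rest of the 12 largest changes. Cmpk2, a mitochondrial nucleotide kinase, Slfn4, Xaf1, Oas3 and Rsad2 also fell. Of the members in this paragraph only Rsad2 reached the filter's minimum level in all 3 AOM PN libraries. The p-values of the others are a description.

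Not every abundant member followed. Ube2l6 was at 17639, 13787 and 15593 CPM across Apc ICI 1 to 3 and 8783, 16091 and 6694 CPM across AOM PN 1 to 3 and did not pass (log2 change -0.57 ± 0.34, edgeR adjusted p = 0.567), with AOM PN 2 inside the Apc ICI range. Isg20 was at 9021, 7157 and 10587 CPM in the Apc ICI libraries against 7412, 11446 and 5767 CPM in the AOM PN libraries and did not pass (log2 change -0.12 ± 0.33, edgeR adjusted p = 0.963). Rsad2 lay between, at 11856, 6715 and 13259 CPM across Apc ICI 1 to 3 and 4111, 6235 and 3227 CPM across AOM PN 1 to 3 (log2 change -1.23 ± 0.34, edgeR adjusted p = 0.0321). These 3 genes with Isg15 made up 91.4, 90.2 and 93.8% of the member UMIs across Apc ICI 1 to 3, against 96.3, 97.4 and 97.6% across AOM PN 1 to 3. The other 43 members summed to 6761, 5273 and 5139.6 CPM and 940.3, 1055 and 412 CPM. Irf1, at 42.4, 75.2 and 17.96 CPM in the Apc ICI libraries against 23.2, 21.2 and 0 CPM in the AOM PN libraries, did not pass (log2 change -1.02 ± 0.59, edgeR adjusted p = 0.541), and Stat2, Ifit3 and Gbp2 had too few counts. Ifit3 had 29 UMIs in all Apc ICI erythroid-like cells, beside 75687 of Isg15.

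**Figure D5:**
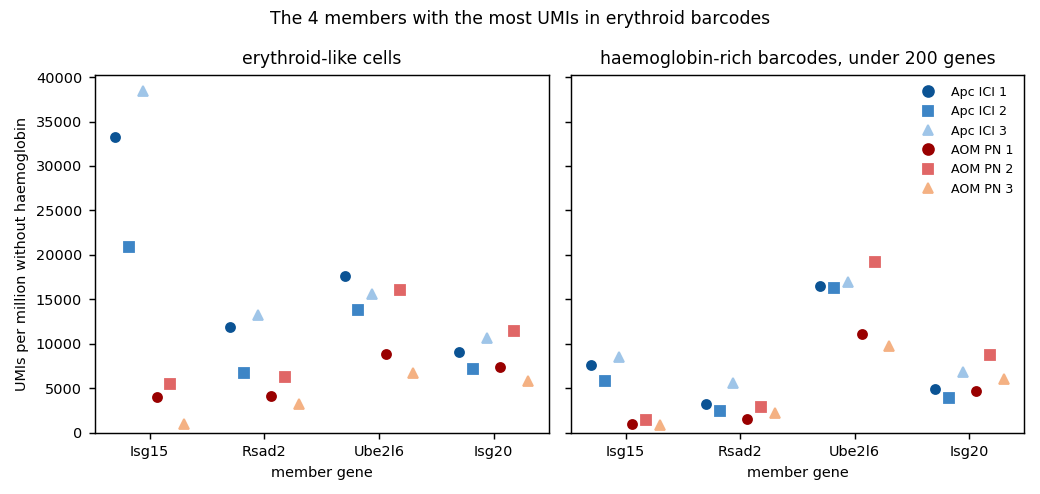
The plot gives the level of Isg15, Ube2l6, Rsad2 and Isg20 in erythroid-like cells and in haemoglobin-rich barcodes with few genes, by library, for Apc ICI (blue) and AOM PN (red to orange). Isg15 separates the groups in both kinds of barcode, while Ube2l6 and Isg20 overlap in erythroid-like cells.

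The erythroid-like clusters differ between the groups as well: clusters 8 and 9 held 1674 and 1599 Apc ICI cells against 203 and 167 AOM PN cells, and cluster 15 held 8 against 1160. The difference in Isg15 was also present inside shared clusters. In cluster 8 Isg15 was at 42227, 44891 and 41251 CPM across Apc ICI 1 to 3, against 5297 in the 188 cells of AOM PN 2, while Ube2l6 was at 14118, 12516 and 12901 and 13267 and Isg20 at 7864, 8371 and 8899.8 and 10042. In cluster 9 Isg15 was at 9495, 8683 and 14676 in Apc ICI against 1156 and 2199.9 in AOM PN 1 and 2. Haemoglobin-rich barcodes with under 200 genes, which were left out of the clustering, showed the same order, with Isg15 at 7564, 5793 and 8452 CPM for Apc ICI against 1005, 1357 and 828 for AOM PN, beside Ube2l6 at 16540.2, 16251 and 16963 and 11051, 19186 and 9694.

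Neutrophil markers were also read in this class. They summed to 1.74, 5.67 and 1.37% of their own-class level in Apc ICI erythroid-like cells and 4.44, 2.32 and 2.68% in AOM PN, and of the 17 called members Slfn4 was the one mainly of another class. Mast cell markers stood at 0.208, 0.465 and 0.718% for Apc ICI against 6.501, 1.15 and 9.08% for AOM PN, epithelial markers at 5.96, 12.6 and 6.99% and 6.76, 2.24 and 2.52%, and those of monocytes and macrophages at 6.16, 7.04 and 1.94% and 9.32, 4.06 and 9.55%. Their part in the falls was not tested. Thinned to 500 UMIs outside haemoglobin, 85.1, 80.5 and 88.97% of erythroid-like cells for Apc ICI against 49.6, 41.6 and 22.8% for AOM PN had a UMI of Isg15, beside 98, 200, 146, 475, 3 and 18 shallower cells left out in Apc ICI 1, 2 and 3 and AOM PN 1, 2 and 3. Without AOM PN 1, 9 members passed, with cells thinned to 1000 UMIs 5 of the 9 then tested did, and 9 calls held whichever library was left out (Bst2, Herc6, Ifi44, Ifit1, Irf7, Isg15, Oasl2, Rtp4 and Usp18). Of the latter 9, only Irf7 and Isg15 reached the filter's minimum level in all 3 AOM PN libraries. The others passed the filter through their Apc ICI counts, so that their calls held is a description.

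In the same 6 libraries, Ifit2, Rsad2 and Usp18 fell in both epithelial- and neutrophil-like cells. Bst2, Ifi47, Ifih1, Irf7, Isg15 and Oas1a rose in the former and fell in the latter.

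Whether a member's change differed between classes was tested directly, in a model with a term for each library. Between neutrophil- and epithelial-like cells the change differed for 28 of 45 members, more negative in neutrophil-like cells for 27, where 21.3% of 13485 genes differed. Oasl2 differed most (-5.51 ± 0.45, edgeR adjusted p = 1.70e-06), and Bst2 (-3.40 ± 0.37, edgeR adjusted p = 2.12e-05), Isg15 (-2.12 ± 0.37, edgeR adjusted p = 0.000848) and Irf7 (-2.51 ± 0.47, edgeR adjusted p = 0.00135) were among the others. Igtp was the exception (1.57). The 27 include Ifi44, which had not passed the filter on low counts in neutrophil-like cells, and Oas2, which had not in epithelial-like cells. Their differences are a description. Between monocyte/macrophage- and epithelial-like cells it differed for 16 of 47, more negative in 15, where 19.5% of 13535 genes differed, with Irf7 (-2.82 ± 0.18, edgeR adjusted p = 3.47e-05) and Bst2 (-2.21 ± 0.25, edgeR adjusted p = 0.000435) among them. Usp18 was the exception (2.17 ± 0.63, edgeR adjusted p = 0.0372). Oas2 is among the 15, and for the same reason its difference is a description. Between monocyte/macrophage- and neutrophil-like cells it differed for 9 of 47, less negative in monocyte/macrophage-like cells for all 9, where 14.1% of 11297 genes differed. Those were Herc6, Ifi204, Ifi27l2a, Ifit3, Oasl2, Slfn5, Slfn8, Usp18 and Xaf1. For Isg15 this difference did not pass (0.62 ± 0.40, edgeR adjusted p = 0.322).

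Of 40 other genes of the pathway, the receptors, kinases and adaptors were tested beside the members. In epithelial-like cells 10 rose and 2 fell, of 29 tested, which is no more than the 46.1% of all genes that passed there. Ifngr1, a chain of the interferon gamma receptor, rose from 54.2 ± 9.22 to 131 ± 11.3 CPM (log2 change 1.27 ± 0.14, edgeR adjusted p = 0.000283) and Irf8, a transcription factor of myeloid cells, from 11.7 ± 2.15 to 44.4 ± 7.99 CPM (log2 change 1.95 ± 0.18, edgeR adjusted p = 0.000133). The feedback inhibitor Socs1 (0.91 ± 0.15), the DNA sensor cGAS (Mb21d1; 1.54 ± 0.30), Myd88 (1.46 ± 0.18), Ikbke, Tlr3, Jak2, Il10rb and Ptpn2 also rose. Tmem173, which encodes STING, the adaptor downstream of cGAS, fell from 88.5 ± 14.4 to 28.9 ± 9.402 CPM (log2 change -1.63 ± 0.22, edgeR adjusted p = 0.000757), as did Pias1 (-0.78 ± 0.17).

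In neutrophil-like cells 7 pathway genes rose and 1 fell, of 28 tested, against 31.4% of all genes, and 14.5% higher. Jak1 rose from 276 ± 28.8 to 412 ± 46.9 CPM (log2 change 0.58 ± 0.16, edgeR adjusted p = 0.0262) and Jak2 from 136 ± 14.1 to 219 ± 33.3 CPM (log2 change 0.69 ± 0.17, edgeR adjusted p = 0.01602), and the receptor chains Ifnar1 (0.47 ± 0.15) and Ifngr1 (0.65 ± 0.17), the phosphatases Ptpn2 and Ptpn6 and the adaptor Myd88 also rose. Ticam1, the adaptor of TLR3, fell (log2 change -3.10 ± 0.42, edgeR adjusted p = 0.00166) on 8 UMIs in AOM PN. It passed the filter on low counts through its Apc ICI counts, so its call is a description. In monocyte/macrophage-like cells Jak1 rose (log2 change 0.60 ± 0.13, edgeR adjusted p = 0.0454; 1 of 30 tested), and in T/NK-like cells Tyk2 fell (log2 change -0.56 ± 0.14, edgeR adjusted p = 0.0428; 1 of 28). None passed among 28 in dendritic- and 20 in B-like cells (edgeR).

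Interferon genes themselves were scarcely read. Over all kept cells Ifna1 had 1 UMI, Ifna2 2, Ifna4 3, Ifne 5, Ifnk 6 and Ifnl2 1, and Ifnl3 had 0. Ifng had 2271 UMIs in 536 cells. At this depth the levels of type I and type III interferons could not be compared between the groups, apart from the Ifnb1 cells given above.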

How the data were processed

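Whole tumours were dissociated, dead cells were removed by a DAPI sort, and 10x Genomics 3′ libraries were made, per the labels' protocols. The authors deposited UMI counts per gene and barcode for each of 6 libraries, made with Cell Ranger 6.1.2 on mm10, per the submitters' processing notes. These 3′ counts are not scaled by gene length. Reads of near copies (Ifit3 and Ifit3b, Ifi204, the Schlafen, Gbp and Oas families) may be split, and 7 members share a same-strand exon with another gene (Ifi47, Igtp, Irf9, Gbp7, Herc6, Parp14 and Rtp4).

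Of 64505 barcodes, 46062 cells were kept with at least 200 genes, at most 20% mitochondrial UMIs and after removal of simulated-doublet neighbours (0.8% per 1000 barcodes; 5.50% to 12.9% of a library removed). Counts outside haemoglobin were scaled to 10000, and 2000 variable genes without the interferon genes, 30 components and 20 neighbours gave Leiden clusters (resolution 1; leidenalg 0.10.2, scikit-learn 1.9.0). Clusters were named from marker lists, so the classes are rebuilt ones. Counts outside haemoglobin were summed per library and class (at least 20 cells) and tested with edgeR 4.0.16 in R 4.3.3 (TMM, filterByExpr, quasi-likelihood, no replicate block, all genes of a class, adjusted p under 0.05). Differences between classes were tested as interactions with a term per library. Fold changes of a member with at most 3 UMIs in a group are given as counting ratios with 95% intervals or against a floor of 3 UMIs over the group. Intervals cover counting error only. The tests were checked on simulated data.

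Named members are those past the threshold in a class, up to the 12 largest changes, and Isg15, Ifit3, Irf7, Stat2, Bst2, Usp18, Irf1 and Gbp2 throughout. Members, lists and tests were chosen with earlier results of these data known. Some members named beyond the rule were chosen after their values were seen. Alternatives were relative log expression size factors, DESeq2 1.42.0, no filter on low counts, haemoglobin kept, doublets kept, thinning, a replicate block and leaving out each library. Added after seeing the data were the epithelial-like class with an unnamed shallow cluster and the neutrophil-like class without a haemoglobin-rich cluster. Promoter sequences are from RefSeq, GRCm38.p6, matched by symbol.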

Additional observations from a re-analysis of the deposited data

Results flagged for a closer look

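A member's change between AOM PN and Apc ICI differed between cell classes in 53 of the cases tested, by edgeR's interaction test with Benjamini-Hochberg adjustment over all genes. Between neutrophil- and epithelial-like cells 28 of 45 members differed, where 21.3% of all genes did. Between monocyte/macrophage- and epithelial-like cells it was 16 of 47, against 19.5% of all genes. For monocyte/macrophage- and neutrophil-like cells it was 9 of 47, against 14.1%. The values are differences of log2 changes.

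Between neutrophil- and epithelial-like cells the change was more negative in neutrophil-like cells by most for Oasl2 (-5.51), Ifi44 (-4.35), Ifi47 (-3.97), Ifit3b (-3.70), Ifit3 (-3.59), Bst2 (-3.40), Ifit2 (-3.08), Oas1a (-2.91) and Ifih1 (-2.89). The next were Slfn5 (-2.87), Oas2 (-2.70), Slfn4 (-2.63), Irf7 (-2.51), Ifi27l2a (-2.24), Isg15 (-2.12), Xaf1 (-2.11), Oas3 (-2.02) and Zbp1 (-1.98). Smaller differences of the same direction were those of Trim30a (-1.88), Lgals3bp (-1.88), Irgm1 (-1.68), Herc6 (-1.46), Dhx58 (-1.29), Isg20 (-1.28), Rtp4 (-1.27), Oasl1 (-1.11) and Ifi35 (-1.11). Igtp differed the other way (1.57). Ifi44 had not passed the filter on low counts in neutrophil-like cells, nor Oas2 in epithelial-like cells, so these differences are a description.

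Between monocyte/macrophage- and epithelial-like cells the difference was more negative in the former for Ifit3b (-4.30), Ifi44 (-4.19), Slfn4 (-3.58), Oasl2 (-3.19), Ifi47 (-2.92), Irf7 (-2.82), Oas2 (-2.31) and Bst2 (-2.21), and also for Ifih1 (-2.10), Isg20 (-1.84), Oas1a (-1.76), Isg15 (-1.50), Oasl1 (-1.46), Lgals3bp (-1.25) and Ifi35 (-1.05). Usp18 differed the other way (2.17). The difference of Oas2, which had not passed the filter on low counts in epithelial-like cells, is a description.

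Between monocyte/macrophage- and neutrophil-like cells the change was less negative in the former for Slfn5 (2.07), Oasl2 (2.01), Xaf1 (1.90), Ifi204 (1.88), Ifi27l2a (1.85), Herc6 (1.63), Ifit3 (1.47), Usp18 (1.46) and Slfn8 (1.41).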

How the results depend on the processing

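Counts of called members stayed within 1.5 times of the reported ones except as follows. DESeq2 gave 5 in monocyte/macrophage-like, 2 in dendritic-like and 1 in B-like cells. With no filter on low counts there were 13 in monocyte/macrophage-like, 6 in dendritic-like, 15 in T/NK-like and 12 in B-like cells, and 20 differences between monocyte/macrophage- and neutrophil-like cells. With doublets kept there was 1 in dendritic-like and 2 in T/NK-like cells. Thinning to 1000 UMIs gave 5 in epithelial-like, 7 in monocyte/macrophage-like, 0 in T/NK-like, 1 in B-like and 5 in erythroid-like cells (5 libraries), and 16 differences between neutrophil- and epithelial-like cells. Fewer genes and cells are tested after thinning.

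Leaving out each library in turn gave 11 to 20 called members in epithelial-like, 15 to 27 in neutrophil-like, 0 to 17 in monocyte/macrophage-like, 0 to 4 in dendritic-like, 1 to 5 in T/NK-like, 1 to 7 in B-like and 9 to 17 in erythroid-like cells. Of 1098 settings for 86 named pairs of member and class, 1005 kept direction and call, 72 lost and 21 gained the call, and none reversed.

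Same-numbered libraries correlated at -0.28 to 0.07 in their deviations from the group means, and other-numbered ones at -0.17 to 0.26. Deviations within a group of 3 balance out, so these values cannot decide whether the numbers pair the libraries, and the labels do not say. With a replicate block 17, 31, 2, 0, 6, 4 and 14 members passed in epithelial-, neutrophil-, monocyte/macrophage-, dendritic-, T/NK-, B- and erythroid-like cells.

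Without the member with most UMIs the summed level was 3847 CPM in monocyte/macrophage-like cells of Apc ICI, 1925 and 1681 CPM in T/NK-like cells of Apc ICI and AOM PN, 1724 and 914 CPM in B-like cells, and 40929 CPM in erythroid-like cells of Apc ICI. Without TMM the T/NK-like level of Apc ICI was 2457. With haemoglobin in the total, erythroid-like cells were at 4201 and 1658, below neutrophil-like cells. The share of cells with an Isg15 UMI at 1000 UMIs and without thinning was 59.7% and 70.8% for neutrophil-like cells of Apc ICI, 37.5% and 53.9% of AOM PN, and 22.3% and 46.2% for monocyte/macrophage-like cells of Apc ICI. Without thinning it was 44.1% for the latter of AOM PN, and 25.4% and 19.3% for epithelial-like cells of Apc ICI and AOM PN (5.09% at 1000 UMIs).

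With relative log expression size factors 789 of 1633 genes were less negative in monocyte/macrophage- than neutrophil-like cells, against 1051 of 1593, the median of all genes moved from 0.07 to -0.05, and 6 members differed. DESeq2 had 1490 of 2547 neutrophil-like calls higher, against 1331 of 2878.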
